A study of Mus musculus with 6 samples.

Results

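The 47 genes described here encode the presynaptic machinery that stores transmitter in vesicles, brings the vesicles to the membrane and fuses them with it. They were taken by symbol from a list of synaptic vesicle, SNARE, active zone and vesicular glutamate transporter genes, and all 47 were found, each matched once, among the 55471 genes counted. RNA-seq had been performed on the hippocampus of 6 C57BL/6 mice (C57BL/6J in the study's methods), 3 p300-ifKO and 3 control, with 1 library per mouse. The p300-ifKO mice carried floxed Ep300, the gene for the acetyltransferase p300, and Camk2a-creERT2, a tamoxifen-dependent Cre recombinase expressed in excitatory forebrain neurons, so glia, interneurons and vessels in the same tissue keep an intact gene. Mice of both groups were male in the study's methods and 3 to 6 months old, the range it gives for young adults. They were given tamoxifen intragastrically on alternate days, 5 times, from a solution in corn oil of 20 mg/ml. The treatment protocol describes controls as littermates that lack the creERT2 transgene, whereas the driver is named in the descriptions of all control libraries.

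In a resting terminal, vesicles loaded with glutamate by vesicular transporters are held in clusters by synapsins, docked by Rab3 and the large scaffolds of the active zone, and made ready for fusion by Munc13 proteins. Calcium binding to synaptotagmin then triggers fusion by the SNARE complex, formed by a vesicle protein (synaptobrevin) and membrane proteins (syntaxin and SNAP-25), with complexins as clamps and cofactors; NSF and SNAP proteins take the used complex apart. In the hippocampus this machinery runs both in local excitatory neurons and in interneurons, and bulk tissue RNA reports all of them together with glia. The question asked was whether loss of p300, a coactivator that joins CREB and other factors at promoters and enhancers, changed the level of these transcripts.

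Promoters of a few members are printed because p300 is recruited by CREB, whose binding site is the cAMP response element. Sequences are from RefSeq on GRCm38.p6, which held a window of 250 bases before to 50 after the start of 35 of the 47 members. The full element, TGACGTCA (the same on both strands), was found in the windows of 2 members, Syn1 and Napa, and in 2.03% of all 27025 genes with a window. In Syn1 (synapsin I), on the minus strand of chrX:20920919-20921168, capitals mark the left part of the element bound by the neuronal repressor REST (TTCAGCACC, held on either strand by 0.433% of genes), which starts 232 bases before the gene start, and the cAMP response element, which starts 159 bases before it. In Napa (alpha-SNAP), on the plus strand of chr7:16098380-16098589, they mark 3 E-boxes (CACGTG, held by 8.09% of genes) and a cAMP response element that starts 7 bases before the gene start.
Syn1: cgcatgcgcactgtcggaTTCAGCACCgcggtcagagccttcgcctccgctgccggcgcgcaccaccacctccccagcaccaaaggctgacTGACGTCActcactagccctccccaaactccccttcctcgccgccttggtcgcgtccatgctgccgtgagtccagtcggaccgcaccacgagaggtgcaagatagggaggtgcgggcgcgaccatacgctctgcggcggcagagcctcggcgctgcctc
Napa: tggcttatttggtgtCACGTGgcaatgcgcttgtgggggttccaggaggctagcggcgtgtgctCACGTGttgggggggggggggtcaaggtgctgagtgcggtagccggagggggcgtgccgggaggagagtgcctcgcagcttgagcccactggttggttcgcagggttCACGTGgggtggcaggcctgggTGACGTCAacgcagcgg

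The shorter core TGACG, on either strand and including those inside full elements, was found in 10 of the 35 windows (28.6%) and in 23% of all genes with a window. Besides Syn1 and Napa these were Syt2, Stx1a, Cplx1, Rab3a, Rab3b, Unc13a, Erc1 and Slc17a6. Unc13a (Munc13-1, the main priming factor of excitatory terminals; minus strand, chr8:71671748-71671817) and Erc1 (ELKS, an active zone scaffold; minus strand, chr6:119848141-119848210) are printed because their values are taken up again below, with the core on either strand in capitals and the gene start 10 bases from the right end.
Unc13a: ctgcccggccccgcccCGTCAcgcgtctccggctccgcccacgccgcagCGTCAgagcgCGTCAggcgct
Erc1: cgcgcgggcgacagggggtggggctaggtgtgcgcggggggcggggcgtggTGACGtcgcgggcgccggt

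Libraries held between 23151568 and 28433823 counts. Ep300 had 1545, 1474 and 2334 normalized counts (counts divided by the size factor of DESeq2) in control mice and 478, 1350 and 912 in p300-ifKO mice, so the groups did not overlap, with p300-ifKO replicate 2 nearest to the controls; the counts do not resolve the floxed exon. DESeq2 gave it a log2 fold change of −0.97 (SE 0.33; p 0.00369 unadjusted, 0.991 adjusted). Esr1, whose coding sequence is partly in creERT2, had 109, 87.2 and 108 normalized counts in control against 4217, 2416 and 2868 in p300-ifKO mice, so the transgene signal followed the groups. Markers of hippocampal excitatory neurons were above 0 in each library for all 7 genes of the list, with summed normalized counts of 121480 to 134433 in control and 109721 to 139826 in p300-ifKO mice, most of them from Camk2a. Libraries also differed in how counts related to the length of genes: across 17071 genes with a mean normalized count above 10, the log2 ratio to the gene's own mean had a Spearman correlation with exonic length of 0.178, 0.163 and 0.412 in control and of −0.504, 0.417 and −0.275 in p300-ifKO replicates 1, 2 and 3. The exonic length of Ep300 is 14273 bases, and the part of this relation in its counts was not tested. Astrocyte markers summed to 97036 to 101398 in control and 81512 to 96530 in p300-ifKO libraries, and microglial markers to 6182 to 6658 and 6829 to 7614, so neither sum overlapped, whereas those of interneuron markers did (21745 to 24956 and 20878 to 23019). Most of the astrocyte sum came from Slc1a2, which overlapped between the groups. In the astrocyte list only Slc1a3 did not overlap on its own, and in the microglial list only Csf1r. Within these lists genes differed, with log2 fold changes from −0.25 (Slc1a3) to 0.0040 (Aldh1l1) for astrocytes and from −0.090 (Cx3cr1) to 0.50 (C1qa) for microglia; the part of cell makeup in the values that follow was not tested. In bulk tissue, fewer cells of a type and less RNA per cell cannot be told apart.

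The level of each member was compared per kilobase of exonic length (normalized counts per kb) and averaged over the 6 mice. Snap25, the membrane SNARE of nearly all central synapses, was the highest at 9355 ± 663 (SD, n = 6), followed by Cplx2 (complexin 2) at 8107 ± 393 (SD, n = 6), Vamp2 (synaptobrevin 2) at 7292 ± 880 (SD, n = 6), Cplx1 (complexin 1) at 6822 ± 751 (SD, n = 6), Rab3a at 6561 ± 1223 (SD, n = 6) and Slc17a7 (VGLUT1, the glutamate transporter of cortical and hippocampal neurons) at 6475 ± 427 (SD, n = 6). The lowest was Syn3 (synapsin III, best known from immature neurons) at 11.9 ± 4.47 (SD, n = 6), 787-fold below Snap25. Between these ends, 21 members were above 1000 normalized counts per kb, 16 lay between 1000 and 100, and 10 were below 100. Of the 46 pairs of neighbours in this order, 39 overlapped in their range over the 6 mice. The other 7 pairs did not, and their lower genes were Syt1, Syn2, Syngr1, Napb, Pclo, Syt2 and Syn3; genes farther apart in the order could still overlap.

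**Figure D1:**
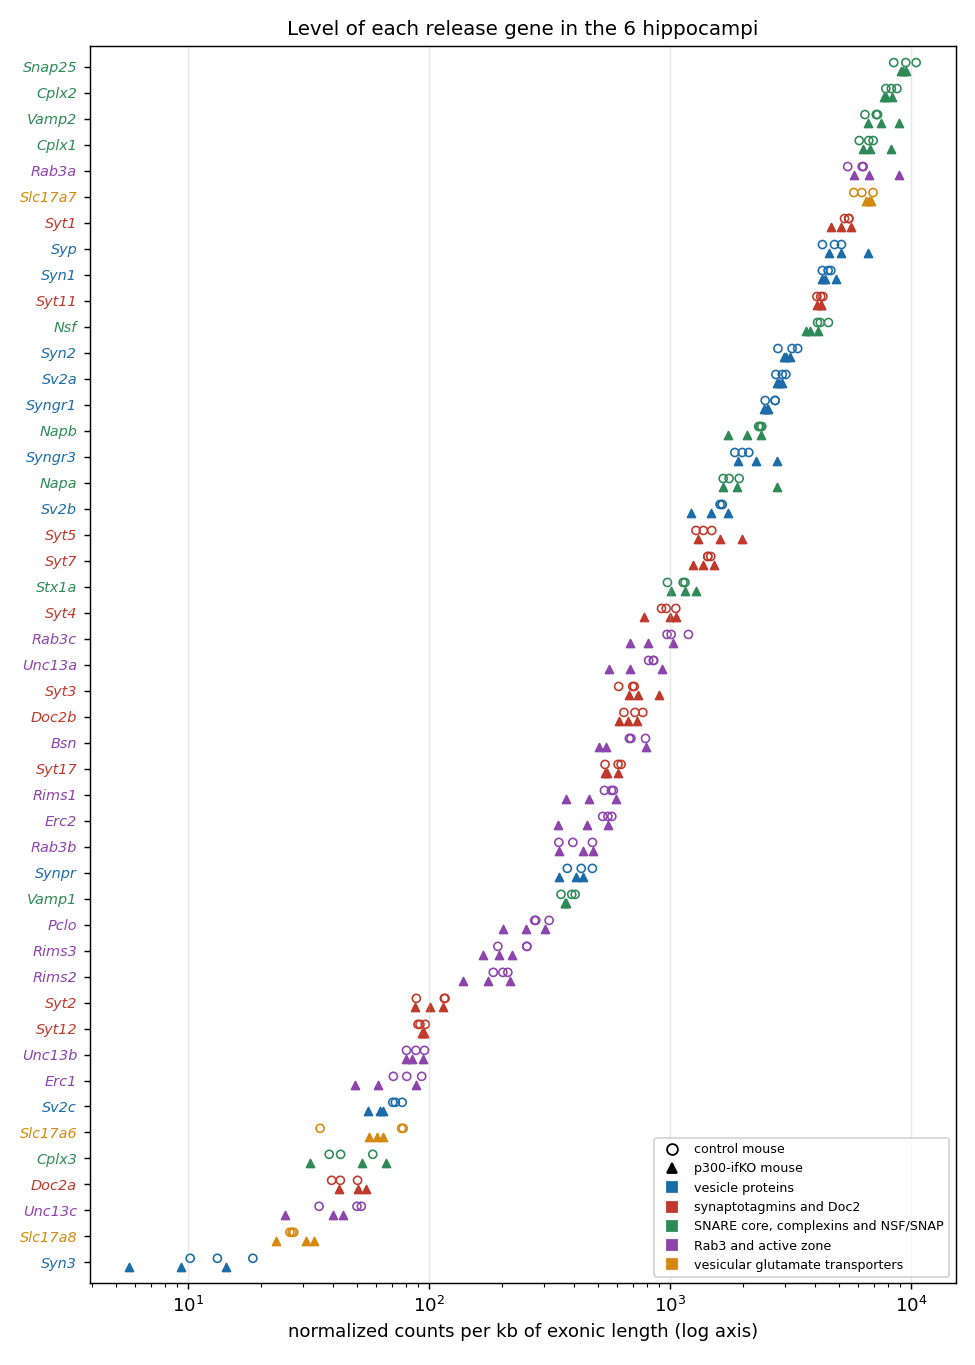
Level of each of the 47 genes in the 6 mice, in normalized counts per kb of exonic length on a log axis (1 point per mouse; open circles control, filled triangles p300-ifKO; colour by role). SNARE and complexin transcripts take the first 4 places, with Snap25 at 9355 on average, and symbols of both groups intermingle for 46 genes, the exception being Sv2c.

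Within paralogue families, 1 member usually carried most of the transcript per length. Syt1, the calcium sensor of fast release, made up 98.1% ± 0.303 (SD, n = 3) of the Syt1 and Syt2 sum in control against 98.1% ± 0.232 (SD, n = 3) in p300-ifKO mice; Syt2 is the sensor of fast hindbrain and basket cell synapses. Vamp2 was 94.8% ± 0.111 (SD, n = 3) of the synaptobrevins in control against 95.4% ± 0.634 (SD, n = 3) in p300-ifKO mice. Among vesicular glutamate transporters, Slc17a7 held 98.6% ± 0.476 (SD, n = 3) and 98.7% ± 0.0931 (SD, n = 3). The groups overlapped in each of these proportions.

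Other families were shared more evenly. Syn1 and Syn2 (synapsins, which tether the reserve pool) took 58.8% and 41.0% of the 3 synapsins in control mice, and 59.6% and 40.3% in p300-ifKO mice. Sv2a, a vesicle glycoprotein and the target of the drug levetiracetam, took 62.9% of its family in control against 65.0% in p300-ifKO mice, and Sv2b took 35.5% and 33.6%. Cplx2 and Cplx1 stood at 55.6% and 44.1% in control and at 52.8% and 46.8% in p300-ifKO mice. Rab3a, the main Rab of vesicles, held 80.4% ± 2.68 (SD, n = 3) of the 3 Rab3 members in control against 84.6% ± 3.80 (SD, n = 3) in p300-ifKO mice, while Rab3c held 14.2% ± 2.34 (SD, n = 3) and 10.4% ± 3.77 (SD, n = 3). Of the active zone families, Unc13a made up 86.3% of the 3 Munc13 members in control mice and Erc2 87.1% of the ELKS pair. Rims1 made up 56.5% of the 3 RIM members and Bsn (Bassoon) 71.3% of the sum with Pclo (Piccolo). The 2 groups overlapped in each of these proportions except that of Rims2, which rested between 19.5% and 21.1% of the 3 RIM members in all 6 mice. Rims4, a RIM gene outside the members, is not in these shares. It had 299 normalized counts per kb in control mice, beside 561 for Rims1, 199 for Rims2 and 233 for Rims3.

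The comparison of p300-ifKO with control mice called none of the members. In DESeq2, 0 of 47 had an adjusted p under 0.05, beside 2 of 32773 genes tested (0.0061%), which were Esr1 and Arsi; member adjusted p-values lay between 0.991 and 0.997. At an unadjusted p under 0.05 there was 1 member, Sv2c, beside 432 genes or 1.32% of all genes. In edgeR, 0 members and 2 of all genes were called, and 1 member was under that unadjusted level as well. Log2 fold changes ran from −0.51 for Syn3 to 0.25 for Rab3a, with 16 above 0, 31 below 0 and a median of −0.056. Over the 17070 genes with a p and a mean normalized count above 10, 49.3% were above 0 and the median was −0.0051. The 95% interval lay within a log2 fold change of ±0.5 for 26 members and within ±1 for 46, the exception being Syn3. A change of 2-fold was thus outside the interval of each member but 1.

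**Figure D2:**
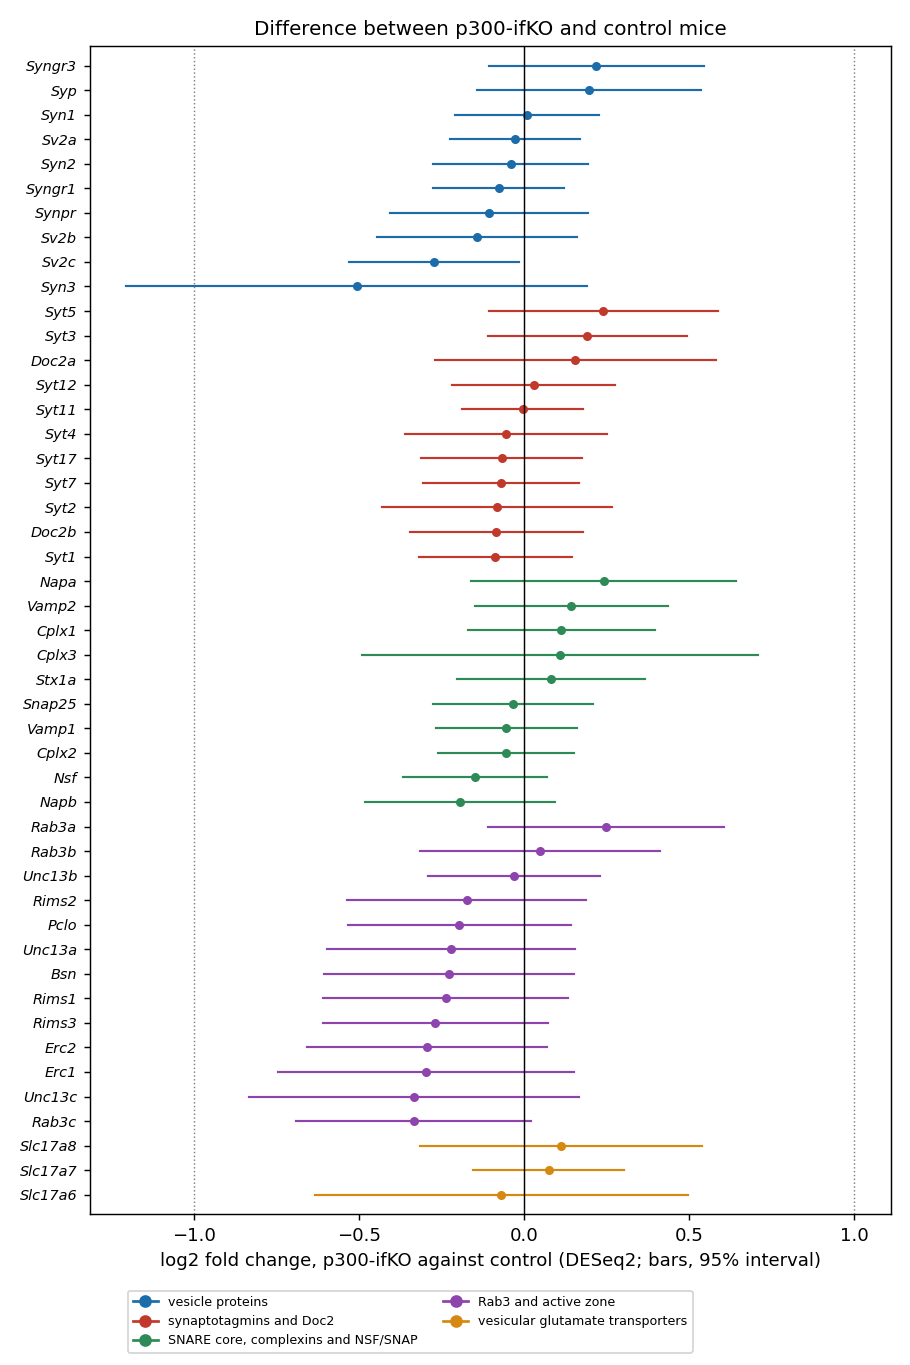
Log2 fold change of each of the 47 genes between p300-ifKO and control mice (DESeq2; points are estimates, bars 95% intervals, colour by role, dotted lines at −1 and 1). The bar of Sv2c alone leaves out 0, and 11 of the 13 Rab3 and active zone genes lie below 0.

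Vesicle proteins were 3 above and 7 below 0, with a median of −0.059. Syp (synaptophysin, an abundant vesicle membrane protein and the highest transcript of this group per kb) had 25002, 26717 and 22271 normalized counts in control against 34522, 23621 and 26675 in p300-ifKO mice. Replicate 1 of p300-ifKO was the highest of the 6, and the other two lay among the controls; the log2 fold change was 0.20 (SE 0.17). Syngr3 (synaptogyrin 3, a relative of synaptophysin) also had its highest value in p300-ifKO replicate 1, with 4380, 4114 and 3833 in control against 5721, 3946 and 4683 in p300-ifKO mice and a log2 fold change of 0.22 (SE 0.17), and there replicate 3 exceeded the controls as well. Syngr1 and Synpr (synaptoporin, enriched in mossy fibre terminals) were at −0.076 (SE 0.10) and −0.11 (SE 0.15). Antisense transcript models cover 16.8% of the exonic length of Syp, and the strand setting of the counting is not stated.

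Estimates for the abundant synapsins were near 0. Syn1 had 14890, 15279 and 14095 normalized counts in control against 16024, 14004 and 14490 in p300-ifKO mice, with a log2 fold change of 0.0083 (SE 0.11) and a 95% interval from −0.21 to 0.23. For Syn2 the values were 22495, 23731 and 19643 against 22081, 20778 and 21150, a log2 fold change of −0.041 (SE 0.12). In both genes the p300-ifKO values lay inside or beside the control range. Syn3 was the least expressed member, with 162, 125 and 228 in control against 70, 177 and 115 in p300-ifKO mice. The widest interval of the 47 belonged to its log2 fold change of −0.51 (SE 0.36), from −1.21 to 0.19, and 14.1% of its exons lie opposite Timp3.

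The SV2 glycoproteins held the only member past an unadjusted threshold. Sv2c, the paralogue known from basal ganglia, had 684, 701 and 748 normalized counts in control against 603, 621 and 541 in p300-ifKO mice. Every p300-ifKO value lay below every control value, and the log2 fold change in DESeq2 was −0.27 (SE 0.13; p 0.0386 unadjusted, 0.991 adjusted). It was the 1 member of 47 whose groups did not overlap with p300-ifKO lower, beside 3.37% of genes with a mean normalized count above 10, and 0 members did so with p300-ifKO higher, beside 4.09%. With length and GC offsets its log2 fold change was −0.11. Sv2a had 13969, 13509 and 12697 in control against 12803, 13518 and 13088 in p300-ifKO mice (log2 fold change −0.028, SE 0.10), and Sv2b had 13469, 13737 and 13744 against 10211, 14495 and 12368 (−0.14, SE 0.15). The 3 control values of Sv2b were nearly equal, while p300-ifKO mice stood on both sides of them.

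Synaptotagmins and the related Doc2 proteins, which bind calcium and lipids (Syt4, Syt11, Syt12 and Syt17 are members that lack the usual calcium binding), were 4 above and 7 below 0, with a median of −0.055. Syt1 had 45927, 45779 and 44017 normalized counts in control against 38545, 46641 and 42518 in p300-ifKO mice, with a log2 fold change of −0.088 (SE 0.12). Syt2 had 888, 674 and 882 against 770, 872 and 666, a log2 fold change of −0.082 (SE 0.18). Both overlapped between the groups. Syt11 was the most even of the abundant members, between 21102 and 22343 in all 6 mice, and its log2 fold change was −0.0044 with a 95% interval from −0.19 to 0.18. Syt7, the slow sensor of asynchronous release and facilitation, was at −0.070 (SE 0.12).

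The largest estimate in this group belonged to Syt5, with 3535, 3260 and 3039 normalized counts in control against 4698, 3098 and 3822 in p300-ifKO mice. Its second p300-ifKO mouse lay within the controls and the others above, a log2 fold change of 0.24 (SE 0.18). Syt3, at 0.19 (SE 0.15), had its highest value in p300-ifKO replicate 1 as well. Doc2a, the lowest of the group per kb, had 141, 120 and 110 in control against 118, 153 and 142 in p300-ifKO mice (log2 fold change 0.16, SE 0.22); 39.4% of its exons lie opposite Ino80e, so its level is uncertain. The other members, Syt4, Syt12, Syt17 and Doc2b, had log2 fold changes between −0.084 and 0.029, and 14.5% of the exonic length of Syt4 and 17.2% of that of Syt12 lie opposite other transcript models.

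The SNARE core, complexins and recycling factors were 5 above and 5 below 0, with a median of 0.024. With 1 surrogate variable estimated from the data, 0 were above and 10 below 0, with a median of −0.066, and leaving out 1 library gave medians from −0.042 (without p300-ifKO replicate 1) to 0.077 (without p300-ifKO replicate 2). Snap25 had 64384, 71064 and 57357 normalized counts in control against 62788, 61369 and 64223 in p300-ifKO mice, which all lay within the control range, and its log2 fold change was −0.034 (SE 0.12). Vamp2 had 27554, 27227 and 24434 against 33844, 25079 and 28512 (0.14, SE 0.15), with p300-ifKO replicate 1 again the highest. Vamp1, the synaptobrevin of spinal cord and brainstem, had 3962, 4094 and 3577 against 3764, 3723 and 3718 (−0.054, SE 0.11), so that p300-ifKO mice lay close together within the control range. Stx1a, the neuronal syntaxin, was at 0.082 (SE 0.15).

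Complexins showed the same overlap. Cplx1 had 15195, 14561 and 13297 normalized counts in control against 17996, 13832 and 14717 in p300-ifKO mice (log2 fold change 0.11, SE 0.14). Cplx2 had 40683, 42926 and 38581 against 38697, 41046 and 37776 (−0.056, SE 0.11). The retinal and cortical form Cplx3 was low, with 172, 113 and 127 against 195, 95 and 155 (0.11, SE 0.31), and p300-ifKO mice held both its highest and its lowest value.

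Nsf, the ATPase that takes apart SNARE complexes, had 34925, 37785 and 34033 normalized counts in control against 30358, 34286 and 31584 in p300-ifKO mice. Only p300-ifKO replicate 2 reached the control range, and the log2 fold change was −0.15 (SE 0.11). Its adaptors stood at opposite ends in p300-ifKO replicate 1. Napb (beta-SNAP) had 16617, 16889 and 16397 against 12206, 16769 and 14640 (−0.19, SE 0.15), while Napa had 6633, 7303 and 6271 against 10480, 6276 and 7122 (0.24, SE 0.20). The exonic length is 7051 bases for Napb and 3786 bases for Napa. In p300-ifKO replicate 1, Napa made up 61.5% of the pair per kb, beside 41.1% to 47.5% in the other 5 mice.

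Rab3 and active zone genes were 2 above and 11 below 0, with a median of −0.23, the farthest from 0 of the 5 role groups in this fit. Leaving out p300-ifKO replicate 1 gave −0.086 and leaving out replicate 2 gave −0.40, and with the surrogate variable the median was −0.024, nearer to 0 than that of the SNARE group. Rab3a, which marks vesicles ready to dock, had 13903, 14056 and 12114 normalized counts in control against 19810, 12893 and 14854 in p300-ifKO mice, and its log2 fold change of 0.25 (SE 0.18) was the highest of the 47. Rab3c had 12150, 11671 and 14313 against 8173, 12322 and 9749, and a log2 fold change in DESeq2 of −0.33 (SE 0.18; p 0.0657 unadjusted). In p300-ifKO replicate 1 these paralogues thus stood at opposite ends, Rab3a highest and Rab3c lowest of the 6 mice. Rab3b had 1673, 1214 and 1388 against 1684, 1212 and 1524 (0.047, SE 0.19), with nearly the same range in each group.

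The scaffolds shared 1 arrangement over the libraries. Bsn, a giant scaffold that organises the active zone, had 10938, 10769 and 12568 normalized counts in control against 8056, 12590 and 8619 in p300-ifKO mice. Its p300-ifKO replicates 1 and 3 were below all controls, and replicate 2 was level with the highest control; the log2 fold change was −0.23 (SE 0.19). Unc13a had 10256, 10717 and 10773 against 7055, 11622 and 8550 (−0.22, SE 0.19), again with replicate 2 above and the others below the controls. For Rims1 (RIM1, which links Rab3, Munc13 and calcium channels) the values were 4166, 4452 and 4536 against 2881, 4674 and 3595 (−0.24, SE 0.19), in the same order.

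The ELKS scaffolds repeated it. Erc1 had 1153, 1311 and 1512 normalized counts in control against 798, 1436 and 1000 in p300-ifKO mice (log2 fold change −0.30, SE 0.23), and 11.8% of its exonic length lies opposite another transcript model. Erc2, the brain form, had 5096, 5561 and 5355 against 3326, 5351 and 4383 (−0.29, SE 0.19). Here replicate 2 lay within the control range and replicates 1 and 3 below it. Pclo, Rims2 and Unc13b (Munc13-2) had log2 fold changes of −0.20 (SE 0.17), −0.17 (SE 0.18) and −0.031 (SE 0.13), each with its lowest value in p300-ifKO replicate 1.

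Rims3, a short RIM form that acts on calcium channels, had 2023, 1534 and 2024 normalized counts in control against 1325, 1749 and 1557 in p300-ifKO mice (log2 fold change −0.27, SE 0.17). Unc13c (Munc13-3, the cerebellar form) had 440, 307 and 459 against 221, 350 and 386 (−0.33, SE 0.25). In both, control replicate 2 was the lowest control and lay among the p300-ifKO values.

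Over the 13 genes together, the median log2 ratio to the mean of the 6 mice was 0.081, 0.045 and 0.19 in control against −0.43, 0.16 and −0.11 in p300-ifKO mice, so p300-ifKO replicate 2 lay with the controls. That library also had the Ep300 count nearest to control. Ep300 is itself long, with 14273 bases of exonic length, and the part of length in its count was not tested. Leaving out p300-ifKO replicate 2 changed the calls. Without p300-ifKO replicate 2, DESeq2 gave an adjusted p for 43 members and called 6 of them, Bsn, Rab3c, Unc13a, Erc1, Erc2 and Rims1, all lower in p300-ifKO mice and all from this group. Their log2 fold changes lay between −0.43 (Rims1) and −0.56 (Erc1), with adjusted p-values from 0.0238 to 0.0353 in DESeq2. In the same comparison 951 of 10912 genes were called (8.72%), 448 of them lower in p300-ifKO mice (4.11%). Beside this, 2 p300-ifKO mice stand against 3 controls, and the remaining p300-ifKO libraries are the 2 with the negative length correlation given above. Summed excitatory markers were lowest in p300-ifKO replicate 1 (109721) and highest in replicate 2 (139826), with 120842 in replicate 3.

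**Figure D3:**
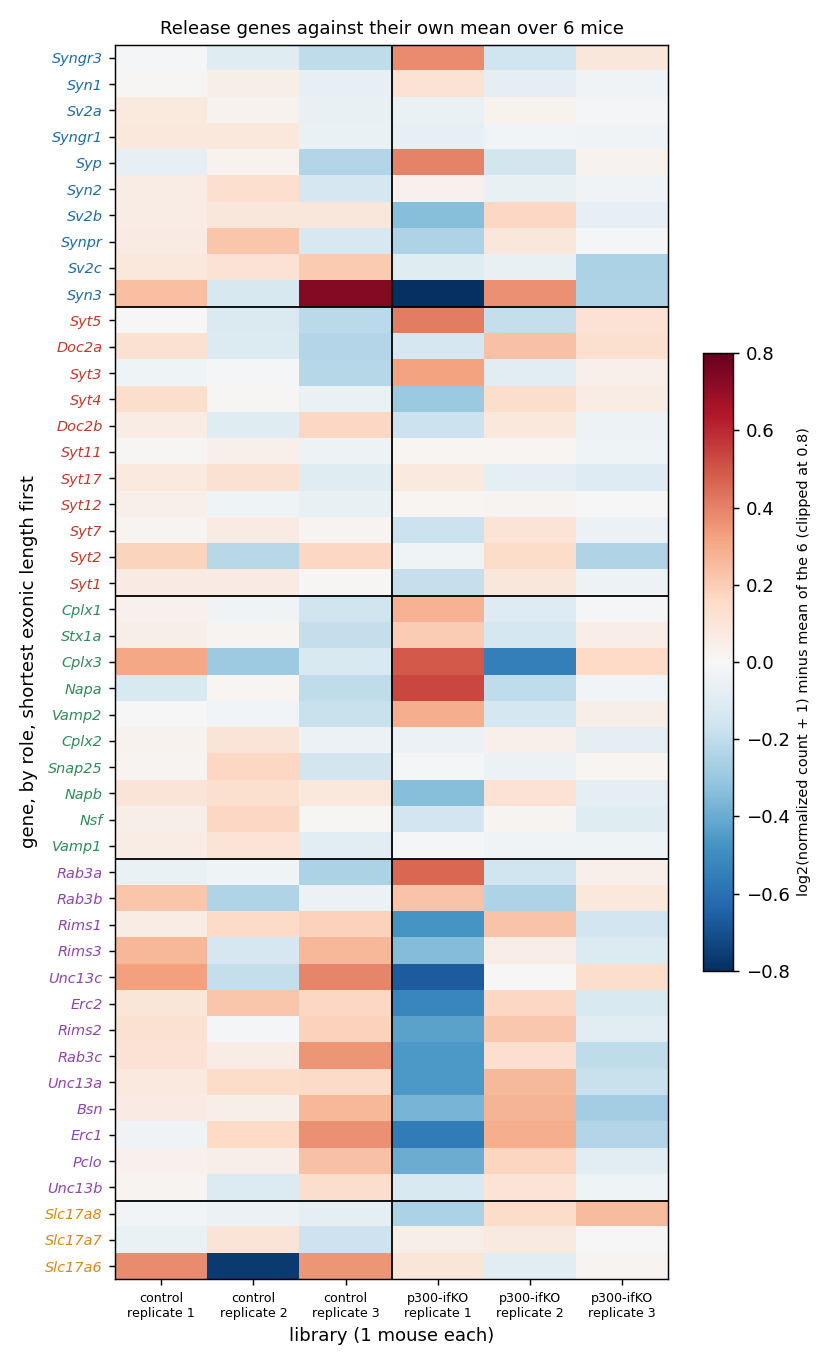
Log2(normalized count + 1) of each of the 47 genes in each library, minus the mean of that gene over the 6 mice (colour, clipped at ±0.8; rows grouped by role, shortest exonic length first in each group). In p300-ifKO replicate 1 long active zone genes such as Bsn, Erc1 and Pclo are blue and several short genes, among them Rab3a, Syngr3 and Syt5, are red, although Syt4 and Slc17a8, which are short too, are blue; in control replicate 3 and p300-ifKO replicate 2, Bsn, Erc1 and Pclo are red and Rab3a, Syngr3 and Syt5 blue.

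Vesicular glutamate transporters were 2 above and 1 below 0. Slc17a7 had 33574, 37382 and 31103 normalized counts in control against 36076, 36552 and 34788 in p300-ifKO mice, all inside the control range, with a log2 fold change of 0.074 (SE 0.12) and a 95% interval from −0.16 to 0.30. Slc17a8 (VGLUT3, found in some interneurons and serotonin fibres) had 129, 127 and 124 against 110, 145 and 156 (0.11, SE 0.22). Slc17a6 (VGLUT2, the transporter of thalamus and other subcortical neurons) had 421, 190 and 414 against 346, 303 and 329 (−0.069, SE 0.29). The value of Slc17a6 in control replicate 2 lay below the other 5. Summed normalized counts of 5 markers of thalamus and habenula, which border the hippocampus, were between 914 and 1215 in all mice, with Gbx2 at or near 0 in each, and were 1089 in control replicate 2; their part in the spread of Slc17a6 was not tested.

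The order of the members by fold change followed exonic length. Across the 47 genes the log2 fold change had a Pearson correlation with log2 exonic length of −0.78 and a Spearman correlation of −0.82, given as a description since all points come from the same 6 libraries; over the 17071 genes with a mean normalized count above 10 the Spearman correlation was −0.44. Of the 18 members under 5000 bases, 13 had a log2 fold change above 0, with a median of 0.11, beside a median of 0.087 for 10461 genes of that length. Of the 29 members at or over 5000 bases, 26 were below 0, with a median of −0.14, beside −0.11 for 6609 genes. Rab3a (2226 bases) and Rab3b (3524 bases) were the shortest of the active zone group and the 2 genes of it above 0. In single libraries the Spearman correlation of the members with length was 0.283, 0.406 and 0.758 in control against −0.768, 0.685 and −0.724 in p300-ifKO mice, positive in all controls and in p300-ifKO replicate 2 and negative in p300-ifKO replicates 1 and 3.

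When smooth offsets for exonic length and GC content were given to each library, the Spearman correlation was −0.31 over the members and their median log2 fold change was 0.0058. The 13 Rab3 and active zone genes then had a median of −0.11 in place of −0.23, with 4 above and 9 below 0; Unc13b, the longest at 22746 bases, was at 0.21 and Bsn at −0.13. With 1 surrogate variable estimated from the data, lowest in p300-ifKO replicate 1 and highest in control replicate 3, the median of that group was −0.024 and all 47 members lay within ±0.3. Neither fit called a member, and 14 members with offsets and 15 with the surrogate variable had a fold change of the other sign. Over the 12 settings tried, 25 of the 47 members changed sign under 1 or more and 22 kept their sign.

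**Figure D4:**
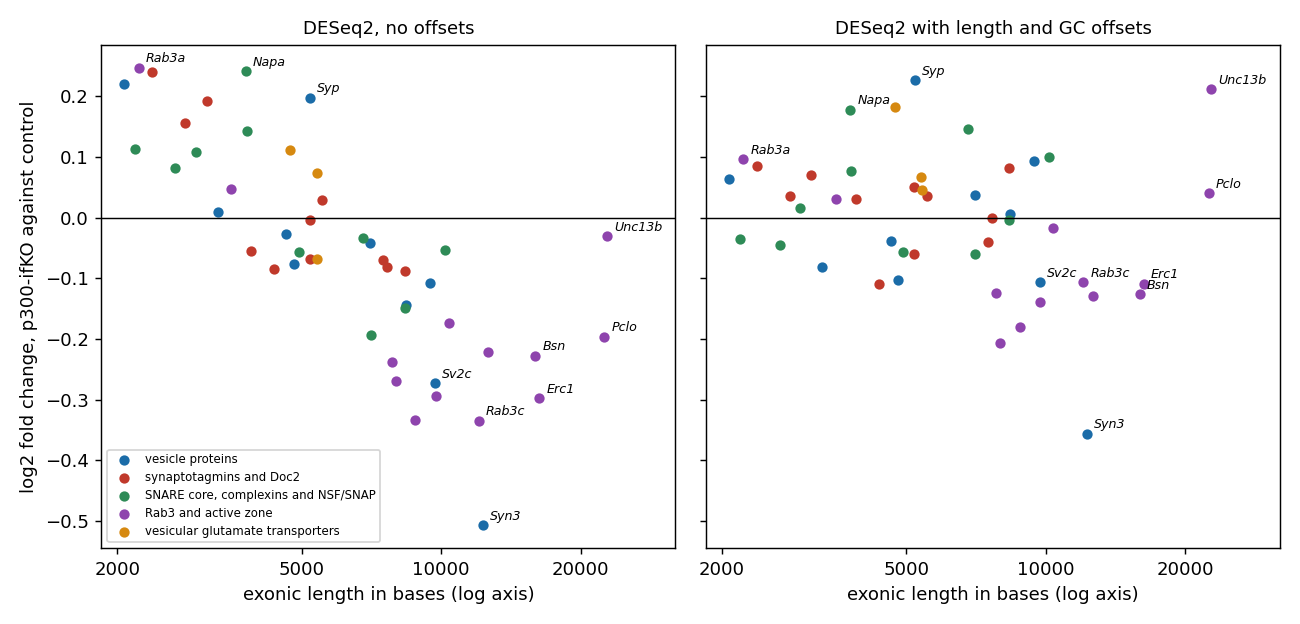
Log2 fold change between p300-ifKO and control mice against exonic length (log axis) for the 47 genes, in DESeq2 without offsets (left) and with length and GC offsets (right), colour by role. On the left short genes such as Rab3a lie above 0 and long ones such as Erc1 below it (Spearman −0.82); on the right the slope is smaller (−0.31).

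Fold changes were also read by promoter motif. Syn1 and Napa, the 2 with the full element, had log2 fold changes of 0.0083 and 0.24. The 10 with the shorter core had log2 fold changes from −0.30 to 0.25 with a median of 0.028, 6 of them above 0, beside a median of −0.088 for the 25 other members with a window. Erc1 and Unc13a, shown above with their cores, and Rab3a, which holds 2, were found at opposite ends of that range. Of genes with the shorter core, the 6 above 0 (Syn1, Stx1a, Cplx1, Napa, Rab3a and Rab3b) had exonic lengths of 2189 to 3786 bases. Those below 0 (Syt2, Slc17a6, Unc13a and Erc1) had exonic lengths of 5399 to 16271 bases. The part of length in these medians was not tested. A match of letters describes the window and says nothing on binding.

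Other genes of the release pathway were read from a list of 49 that holds no member: syntaxin and Munc18 partners, tomosyns, CAPS proteins, liprins, further synaptotagmins and endocytic factors. DESeq2 gave a p for 48 of them, with 14 above and 34 below 0, a median log2 fold change of −0.071 and 0 calls. At an unadjusted p under 0.05 there was 1, Syt9, a further synaptotagmin, with 262, 199 and 208 normalized counts in control against 144, 134 and 183 in p300-ifKO mice (log2 fold change −0.53, SE 0.22, unadjusted p 0.0129, adjusted p 0.991 in DESeq2). Its groups did not overlap. The next by p were Lin7a (an adaptor bound by CASK at terminals; −0.70, SE 0.39), Stx4a (a syntaxin of other membranes; 0.29, SE 0.19) and Ppfia2 (liprin-alpha-2, which binds RIM and ELKS; −0.26, SE 0.17). Lin7a ranged from 201 to 326 in control and from 75.2 to 254 in p300-ifKO mice, with replicate 2 again inside the control range. Without that replicate, 3 of the 49 were called, Lin7a, Apba1 and Synj1. In each of them p300-ifKO replicates 1 and 3 lay below all controls. Over all genes given an adjusted p in that fit, 8.72% were called in either direction and 4.11% lower in p300-ifKO mice.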

How the data were processed

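The authors deposited raw counts of single-end 50 bp reads per gene. Per the submitters' processing notes and the study's methods, reads were trimmed with Trim Galore (0.6.4), aligned with STAR (2.6.1) to GRCm38, filtered on mapping quality and counted over exons with Rsubread. The strand setting is not given in the sources used here. Filtering on mapping quality lowers counts of near-identical copies. Exonic length came from the same table, and gene names, coordinates and overlaps from GENCODE M21, to which 99.57% of identifiers matched. Unused columns of single samples numbered 0.

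Counts of all genes were fitted in DESeq2 (1.42.0, R 4.3.3; the study used 1.30.1) with a two-sided Wald test, no covariate and Benjamini-Hochberg adjustment, threshold 0.05, and members were read from that fit. Alternatives were edgeR's quasi-likelihood test (4.0.16), TMM factors, a filter of at least 10 counts in at least 3 libraries, a threshold of 0.1, a replicate block, 1 surrogate variable (sva 3.50.0), length and GC offsets (mgcv 1.9.3, mean normalized count above 10) and leaving out each library. Promoter sequences are RefSeq's. Scripts were tested on simulated data. Every member is described, with values in each mouse for the highest and lowest per kb of each role, the 12 smallest p-values and paralogue sets; Napa and the genes called without p300-ifKO replicate 2 were added after their values were seen. Members, lists and tests were chosen with earlier results of these data known. One gene of the wider list is not reported here. Each library is a different mouse.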

Additional observations from a re-analysis of the deposited data

How the results depend on the processing

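No member was called under edgeR, TMM factors, the count filter, a threshold of 0.1, the replicate block, the surrogate variable or the offsets. Leaving out 1 library each gave 0 to 6 members called and 0 to 18 at an unadjusted p under 0.05. It gave 0 to 3 genes of the wider list called and 2 to 951 of all genes. The upper value each time was that without p300-ifKO replicate 2. In that DESeq2 fit 4091 of all genes had an unadjusted p under 0.05, beside 432 with no library left out. With offsets 0 members passed the unadjusted level. Ep300 was at −0.48 with the surrogate variable (adjusted p 0.00127 in DESeq2) and at −1.36 (adjusted p 0.000349 in DESeq2) to −0.66 with 1 library left out. Same-numbered mice of the 2 groups correlated in their deviations at 0.27, −0.28 and 0.13, without a shared sign. With 3 mice per group these values cannot decide whether the numbers pair mice. The replicate block gave 4 calls over all genes and changed the sign of Slc17a6, to 0.0099. The cause of the changes of sign that follow was not tested, and most are of values near 0.

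With the surrogate variable, log2 fold changes of the other sign were −0.072 (Syn1), −0.028 (Syp), 0.0017 (Sv2b), 0.054 (Syt4), 0.010 (Syt7), 0.024 (Doc2b), −0.064 (Stx1a), −0.029 (Vamp2), −0.042 (Cplx1), −0.28 (Cplx3), −0.056 (Napa), −0.0039 (Rab3a), −0.11 (Rab3b), 0.027 (Rims2) and 0.070 (Unc13b). With offsets they were −0.081 (Syn1), 0.037 (Syn2), 0.093 (Synpr), 0.0058 (Sv2b), 0.081 (Syt1), 0.031 (Syt4), 0.050 (Syt11), 0.15 (Snap25), −0.046 (Stx1a), 0.10 (Vamp1), −0.035 (Cplx1), 0.040 (Pclo), 0.21 (Unc13b) and 0.046 (Slc17a6), and Syt11 was at 0.0014 in edgeR and 0.0070 with TMM factors. With 1 library left out the range was −0.052 to 0.051 for Syn1, −0.11 to 0.021 for Syn2, −0.062 to 0.0048 for Sv2a, −0.20 to 0.012 for Syt2, −0.14 to 0.065 for Syt4, −0.024 to 0.017 for Syt11, −0.11 to 0.047 for Snap25, −0.0054 to 0.17 for Stx1a, −0.0089 to 0.19 for Cplx1, −0.14 to 0.35 for Cplx3, −0.0091 to 0.39 for Napa, −0.061 to 0.18 for Rab3b, −0.094 to 0.035 for Unc13b and −0.36 to 0.11 for Slc17a6.

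The median of the members was 0.0058 with offsets. The median of the synaptotagmins and Doc2 was 0.010 with the surrogate variable and 0.035 with offsets, and −0.046 to 0.012 with 1 library left out; that of the vesicle proteins was −0.12 to −0.019, that of the Rab3 and active zone genes −0.40 to −0.086, and that of the glutamate transporters 0.0067 to 0.11, or 0.047 with the surrogate variable. Without division by length, Syn1 made up 40.5% of its family's counts, Sv2a 49.4%, Vamp2 87.8%, Cplx2 72.6% and Rab3a 53.0%, so the share of a family depends on the exonic lengths used.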
